A study of Mus musculus with 6 samples.

Results

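Cxcl1, Cxcl2, Cxcl3 and Cxcl5 encode 4 of the mouse ligands of CXCR2, the chemokine receptor that draws neutrophils out of the blood. These 4 genes were taken by symbol from a table of 34745 genes, and each symbol occurred on a single row. Their transcripts were measured by RNA sequencing in primary renal fibroblasts, cells that lay down matrix and were isolated from digested kidneys of WT mice, whose age and strain the labels do not give. The isolation, and 6 h of adherence in 6-well plates, are described alike for all 6 libraries. Lone fibroblasts received no treatment (3 libraries), and cocultured fibroblasts were kept for 24 h under a transwell insert with 0.4 µm pores that held induced Th17 cells, helper T cells that secrete interleukin-17 (3 libraries). The Th17 cells had been raised from splenic CD4+ T cells with anti-CD3/CD28, IL-1β, IL-6, IL-23 and anti-IFN-γ, and the fibroblasts below the insert were the cells sequenced. The sources used here do not say how long lone wells were kept after adherence, nor whether they held an empty insert. They also do not say whether each library stands for its own culture or animal. Errors and p-values here therefore measure how these libraries vary, which may be technical.

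CXC chemokines are small secreted proteins, and those with a glutamate-leucine-arginine (ELR) motif ahead of the first cysteines bind CXCR2. Stromal and epithelial cells make them when IL-17, IL-1 or TNF acts on the cell. IL-17 does so in part through NF-κB, IκBζ and C/EBP factors at the promoters, and in part by prolonging the life of the short-lived mRNAs, which RNA-binding proteins otherwise mark for decay. In the kidney, as in other tissues, this route links Th17 cells to neutrophil entry.

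The total was between 12050529 and 13209581 fragment counts per library. Fibroblast markers such as collagen genes summed to 34077 to 35964 CPM (counts scaled by TMM to a common library total) in lone and 14229 to 15932 CPM in cocultured libraries, with 8 of 9 lower, 1 (Dcn) higher and none at 0. Of 11 neutrophil markers, 7 were at 0 counts in every library (Elane, Ngp, Ltf, Csf3r, Cxcr2, Retnlg and S100a9), and all 11 summed to between 1.19 and 2.03 CPM across the libraries. Of 10 T cell markers, Cd3d, Il17a, Il17f and Ccr6 were at 0 counts throughout, and the sum was 4.27 to 5.53 CPM in lone and 2.21 to 2.67 CPM in cocultured libraries. The 12 macrophage markers summed to 58.7 to 61.8 CPM in lone and 19.9 to 21.1 CPM in cocultured libraries, with 5 of the 6 tested lower, and the defining marker Adgre1 went from 71, 47 and 55 counts to 0 in all 3 cocultured libraries, at least 19.6-fold lower. The 5 epithelial markers summed to 16.2 to 18.8 CPM in lone and 2.74 to 4.24 CPM in cocultured libraries, and the 5 endothelial markers, with Emcn at 0, to 6.79 to 7.52 and 1.60 to 2.75 CPM. The summed T cell, macrophage, epithelial and endothelial lists were thus lower in every cocultured library, and the neutrophil list overlapped between the groups. A single gene made up most of the lone sum for T cells (Lck, 4.72 to 2.29 CPM), epithelium (Krt19, 15.3 to 2.47) and endothelium (Kdr, 5.55 to 0.126). Not every member fell: mean CPM in lone and cocultured libraries was 1.24 and 1.32 for Pecam1, 0.215 and 0.615 for Tek, and 0.0522 and 0.152 for Cd3e. The part of these other cells in the ligand levels was not tested. A change in the level of a transcript in such cultures cannot tell RNA per cell from the number of cells that make it.

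The ligand genes lie on the same strand (+) of chromosome 5 (mm10) within 147 kb, from 90759360 to 90905938, in the order Cxcl5, Ppbp, Pf4, Cxcl3, Cxcl15, Cxcl1 and Cxcl2. The stretches below are coding sequence around the ELR codons, shown because this motif is what makes the proteins CXCR2 ligands. Each is 66 bases of a spliced protein-coding GENCODE transcript of its gene, 5′ to 3′ in the direction of the + strand of GRCm38. The glutamate, leucine and arginine codons are in capitals. All 4 transcripts have 4 exons, and the ELR codons lie in exon 2. The stretches of Cxcl1, Cxcl2 and Cxcl3 cross the junction of exons 1 and 2, so they are not continuous on the chromosome. That of Cxcl5 lies within exon 2.
Cxcl1: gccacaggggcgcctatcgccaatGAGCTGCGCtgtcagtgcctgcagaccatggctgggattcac
Cxcl2: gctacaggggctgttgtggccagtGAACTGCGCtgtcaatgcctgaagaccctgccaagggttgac
Cxcl3: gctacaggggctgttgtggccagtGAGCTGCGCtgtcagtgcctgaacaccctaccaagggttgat
Cxcl5: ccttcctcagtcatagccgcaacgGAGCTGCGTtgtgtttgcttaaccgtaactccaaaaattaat
On chromosome 5 the capitals occupy 90891487 to 90891495 in Cxcl1, 90904133 to 90904141 in Cxcl2, 90786359 to 90786367 in Cxcl3 and 90759718 to 90759726 in Cxcl5. Cxcl2 and Cxcl3 were the closest relatives, with 89.8% identity over their coding sequences and a shared run of 110 bases in their transcripts. Cxcl1 had 75.9% identity with Cxcl2 and 72.6% with Cxcl3. Cxcl5, with the longest coding sequence (399 bases with the stop codon, against 291 to 303 bases), had between 51.0% and 52.8% identity with the others. Fragments of Cxcl2 and Cxcl3 can therefore be confused in part: 5.75% of the 50-base windows of the Cxcl2 transcript and 6.31% of those of Cxcl3 occur in the other gene. No window of Cxcl1 occurred in any other gene, and the 0.852% of Cxcl5 windows that did were shared with genes other than the ligands. How fragments that match several genes were assigned is not stated in the sources used here, so the counts of Cxcl2 and Cxcl3 carry this uncertainty. No gene in the table overlaps any of the 4.

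The promoters of Cxcl1, Cxcl2 and Cxcl3 are shown because NF-κB is the best-known activator of these genes and because each of them rose with Th17 cells. Cxcl5 had no entry in the promoter table used here. Each sequence is the 250 bases before the RefSeq start of the gene (GRCm38.p6, + strand, 5′ to 3′), at chr5:90890995-90891244 for Cxcl1, chr5:90903649-90903898 for Cxcl2 and chr5:90785851-90786100 for Cxcl3. Capitals mark the core of a κB motif (GGAATTTCC) and, nearer the start, a TATA-type element (ATAAAA).
Cxcl1: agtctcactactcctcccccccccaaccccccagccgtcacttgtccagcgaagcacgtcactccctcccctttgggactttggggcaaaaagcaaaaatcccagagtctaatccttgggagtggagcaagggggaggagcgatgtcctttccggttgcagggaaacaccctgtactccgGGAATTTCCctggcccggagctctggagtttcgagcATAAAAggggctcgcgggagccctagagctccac
Cxcl2: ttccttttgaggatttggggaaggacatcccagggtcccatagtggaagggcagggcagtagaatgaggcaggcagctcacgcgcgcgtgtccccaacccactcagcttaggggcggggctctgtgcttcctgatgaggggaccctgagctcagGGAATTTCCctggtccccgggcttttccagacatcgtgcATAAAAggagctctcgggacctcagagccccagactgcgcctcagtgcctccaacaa
Cxcl3: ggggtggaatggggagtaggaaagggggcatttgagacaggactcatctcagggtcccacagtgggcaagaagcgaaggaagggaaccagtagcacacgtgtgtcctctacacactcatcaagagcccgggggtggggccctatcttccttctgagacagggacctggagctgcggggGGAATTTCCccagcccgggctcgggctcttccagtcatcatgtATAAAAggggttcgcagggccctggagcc
The κB core began at position −70 in Cxcl1, −96 in Cxcl2 and −72 in Cxcl3, counted back from the RefSeq start. Over 32851 RefSeq promoters of this length, 0.286% held GGAATTTCC on either strand, and 7.25% matched the general κB motif, which overlaps these letters and which all 3 promoters also matched. The TATA-type element began at −34, −57 and −29, and 17.0% of all promoters held its letters. The RefSeq start of Cxcl2 lies 28 bases from the start listed in the deposited table, against 4 and 2 bases for Cxcl1 and Cxcl3. Cxcl2 and Cxcl3 had 58.7% identity over these promoters, Cxcl1 and Cxcl3 52.7%, and Cxcl1 and Cxcl2 52.0%. The letters of an AP-1 motif (TGANTCA) and a C/EBP motif (TTGCNNAA) were absent from all 3 windows and occurred on either strand in 6.75% and 9.56% of promoters. GGAATG, bound by TEAD factors, was present in the Cxcl3 window alone, at −245, and in 12.6% of all promoters. These motifs were chosen after the sequences were seen, and a match is a string of letters, not a measured binding site.

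The question put to the ligand genes was whether the sequenced fibroblast cultures held more of their transcripts after sharing medium with Th17 cells. They did for each of the 4. Cxcl3 rose most, then Cxcl2, Cxcl5 and Cxcl1, and in each gene every cocultured library lay above every lone library. All 4 passed an adjusted p of 0.05 in edgeR (quasi-likelihood test, Benjamini-Hochberg over all 13088 genes tested), and none was lower. The background of this comparison was broad, since 17.1% of tested genes were higher at that threshold and 20.0% were lower. With library size alone as scaling, the calls split into 2916 higher and 2280 lower in place of 2244 and 2612, and with limma on log2(FPKM + 1) into 2841 and 2249. All 4 ligand genes also passed the study's added limit of a fold change above 2, which 3.87% of tested genes passed upward. The groups did not overlap, with the cocultured one above, in 24.3% of tested genes. The median log2 fold change was 1.68 over the 4 genes and 0.00 over all genes tested.

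**Figure D1:**
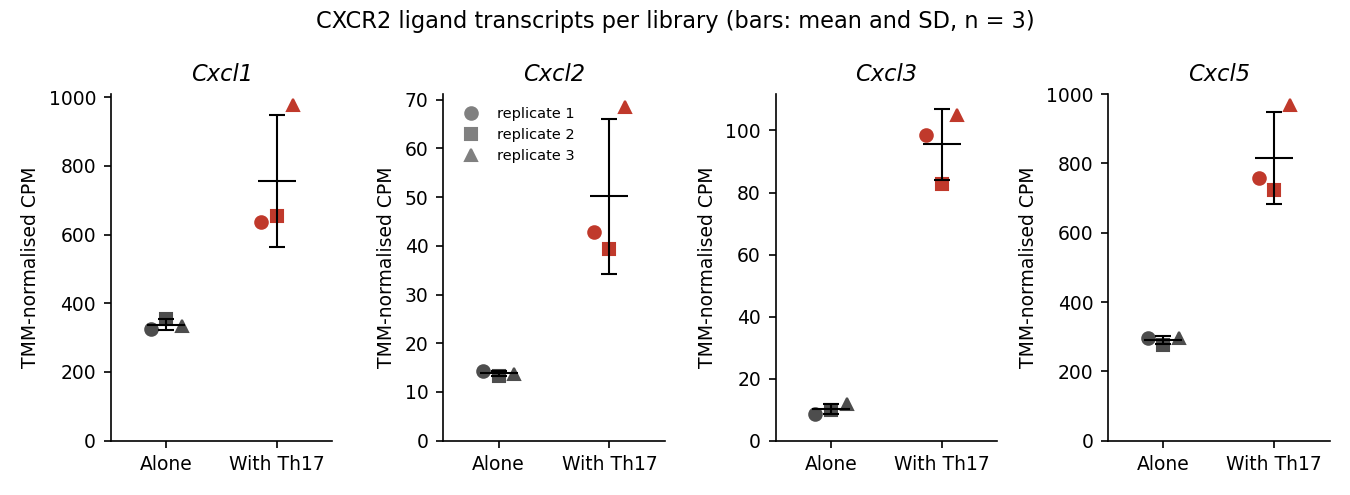
Level of each ligand gene by library, in TMM-normalised CPM from a linear axis that starts at 0. Points are libraries, marked by replicate number, and bars give the mean and SD of 3 libraries. In each panel the 3 cocultured libraries sit above the 3 lone ones, and cocultured replicate 3 is the highest.

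Cxcl3 (ENSMUSG00000029379, chromosome 5, 90786103 to 90789600), known as dendritic cell inflammatory protein 1 in the mouse, had the fewest counts of the 4 in lone fibroblasts. The lone libraries held 112, 125 and 140 counts and the cocultured libraries 1324, 1054 and 1383. The lowest cocultured library stood 6.99-fold above the highest lone one on the CPM scale, the widest gap of the 4 genes. The mean went from 10.1 ± 1.59 to 95.5 ± 11.5 CPM (SD, n = 3 in each group), with a fold change of 9.43 (95% interval 7.63 to 11.7; log2 3.24, SE 0.135, edgeR adjusted p = 2.14e-07). It ranked 51 of the tested genes by log2 fold change. By FPKM, the count per length and library total, it lay above 33.8% of tested genes in lone fibroblasts and above 84.9% in cocultured fibroblasts.

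Cxcl2 (ENSMUSG00000058427, chromosome 5, 90903871 to 90905938), also named macrophage inflammatory protein 2, started from a similarly low FPKM. Its counts were 185, 169 and 162 when the fibroblasts were alone and 576, 501 and 901 with Th17 cells. Lone libraries were close together, and cocultured replicate 3 stood well above the other cocultured libraries. The mean went from 13.8 ± 0.512 to 50.2 ± 15.9 CPM (SD, n = 3 in each group), with a fold change of 3.64 (95% interval 2.65 to 4.99; log2 1.86, SE 0.201, edgeR adjusted p = 0.000102). Its place by FPKM moved from above 37.7% to above 70.1% of tested genes.

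Cxcl5 (ENSMUSG00000029371, chromosome 5, 90759360 to 90761624), which in the mouse is also called LIX, was already abundant without Th17 cells. Lone libraries held 3828, 3498 and 3498 counts of it, and cocultured libraries 10205, 9202 and 12712. The lone libraries differed little, and the lowest cocultured library was 2.43-fold above the highest lone one in CPM. The mean went from 289.7 ± 11.6 to 816 ± 132 CPM (SD, n = 3 in each group), with a fold change of 2.82 (95% interval 2.39 to 3.32; log2 1.49, SE 0.105, edgeR adjusted p = 6.12e-06).

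Cxcl1 (ENSMUSG00000029380, chromosome 5, 90891241 to 90893115), the keratinocyte-derived chemokine KC, was like Cxcl5 abundant from the start and had the smallest fold change. Its counts were 4169, 4493 and 3956 without and 8559, 8329 and 12854 with Th17 cells. Cocultured replicates 1 and 2 lay close together, with replicate 3 apart from them. The mean went from 338 ± 15.9 to 756 ± 192 CPM (SD, n = 3 in each group), with a fold change of 2.24 whose 95% interval, 1.77 to 2.83, includes values below 2 (log2 1.16, SE 0.150, edgeR adjusted p = 0.000305). By FPKM Cxcl1 and Cxcl5 lay above 97.7% and 97.8% of tested genes in lone fibroblasts, and above 99.2% and 99.4% in cocultured fibroblasts. The abundant genes thus had the larger gain in CPM, and the scarce ones the larger fold changes.

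**Figure D2:**
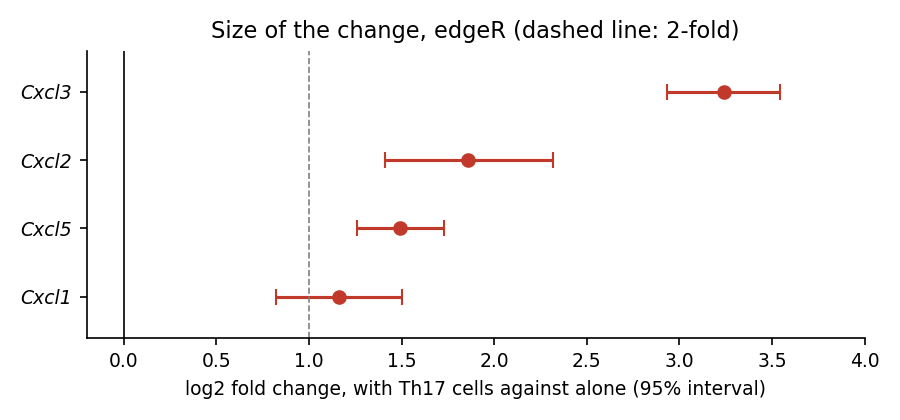
Log2 fold change of each ligand gene, cocultured against lone fibroblasts, from edgeR. Points are estimates, horizontal bars are 95% intervals, the solid line marks no change and the dashed line a fold change of 2. Cxcl3 lies at 3.24 with an interval that meets no other, and the interval of Cxcl1, 0.82 to 1.5, crosses the dashed line.

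Cocultured replicate 3 carried the highest level of all 4 genes, while 34.1% of all tested genes were highest there among the cocultured libraries. Its CPM over the mean of the other cocultured libraries was 1.67 for Cxcl2, 1.52 for Cxcl1, 1.31 for Cxcl5 and 1.16 for Cxcl3, against a median of 0.988 over all tested genes. Over all genes this library also stood apart, with a chi-square per gene of 15.0 and 13.8 against the other cocultured libraries, which had 8.37 between them. For Cxcl2 this ratio was above that of 97.1% of tested genes and for Cxcl1 above that of 95.3%. Without that library the 4 genes still passed the adjusted p threshold in edgeR, with log2 fold changes of 3.16 for Cxcl3, 1.58 for Cxcl2, 1.36 for Cxcl5 and 0.94 for Cxcl1, so that Cxcl1 no longer reached a fold change of 2 and 3 genes did. The spread within the cocultured group was wider than counting alone gives. The coefficient of variation of Cxcl1 was 4.72% in lone and 25.4% in cocultured libraries, where counting alone would give 1.54% and 1.0%. For Cxcl2 it was 3.71% and 31.7%, for Cxcl5 4.01% and 16.2%, and for Cxcl3 15.7% and 12%. Tested against a fold change of 2 in place of none, with edgeR's glmTreat, 3 of the 4 genes passed and Cxcl1 had an adjusted p of 0.577. Of all 13088 genes tested, 243 passed upward in that test.

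Whether the genes moved by different amounts was asked within each library, from the ratio of CPM of each of the 6 pairs of genes. The ratio of Cxcl3 to Cxcl1 moved furthest. Its log2 was −5.14, −5.10 and −4.76 in lone fibroblasts and −2.69, −2.97 and −3.21 in cocultured fibroblasts, a 4.12-fold shift of the mean ratio toward Cxcl3. Against Cxcl2, its closest relative in sequence, Cxcl3 gained 2.63-fold, with a mean log2 ratio of −0.44 in lone and 0.96 in cocultured libraries. The sign of that log2 ratio was negative in each lone and positive in each cocultured library, which on CPM is no comparison of levels per length. The ratio of Cxcl2 to Cxcl1 rose 1.57-fold and that of Cxcl5 to Cxcl1 1.27-fold. The ratios of Cxcl5 to Cxcl2 and to Cxcl3 changed by factors of 0.811 and 0.309. Lone and cocultured libraries did not overlap in any of the 6 ratios. These ratios share the same 4 genes and are not independent. How often other pairs of tested genes separate in this way was not counted. The exact two-sided permutation test gave p = 0.1 for each of the 6 pairs, also when adjusted over them by Benjamini-Hochberg, and this is the smallest p that 3 against 3 libraries allow, so none could pass 0.05.

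**Figure D3:**
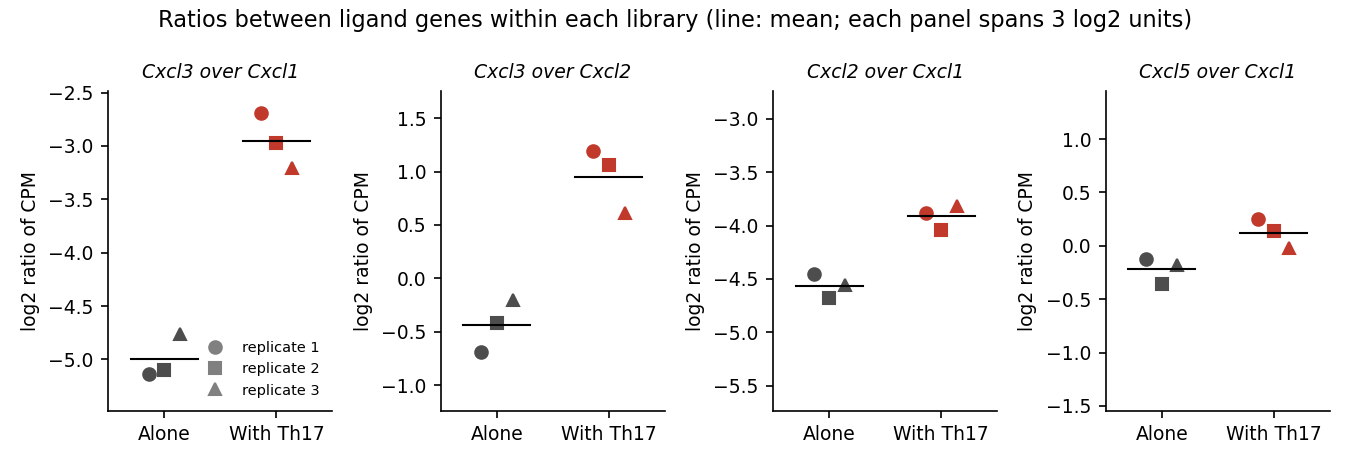
Log2 ratio of CPM between ligand genes in each library, for the 4 pairs whose ratio rose as written. Points are libraries marked by replicate, lines are means of 3 libraries, and each panel spans the same range of log2 units around its own centre. The lone and cocultured points are furthest apart for Cxcl3 over Cxcl1, with means of −5.0 and −2.96.

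In levels per length, the deposited FPKM of Cxcl5 was 128, 119 and 128 in lone and 342, 324 and 439 in cocultured fibroblasts. That of Cxcl1 was 112, 123 and 116, and 230, 235 and 356. In lone fibroblasts these neighbours in the order overlapped. In each cocultured library Cxcl5 was above Cxcl1, by a ratio of 1.23 to 1.49, although the ranges of the libraries overlapped. Cxcl2 had an FPKM of 2.72, 2.53 and 2.61 in lone and 8.49, 7.75 and 13.7 in cocultured fibroblasts, and Cxcl3 had 1.88, 2.14 and 2.57, and 22.3, 18.6 and 24.0. The latter pair overlapped in lone fibroblasts and stood apart in cocultured fibroblasts, with Cxcl3 above Cxcl2 by a ratio of 1.75 to 2.63. The order depends on the length assigned to each gene, and so does the place of each ligand gene by FPKM among all tested genes. The deposited FPKM implies 2824 bases for Cxcl1, 5156 for Cxcl2, 4514 for Cxcl3 and 2266 for Cxcl5, longer than the span of the gene on the chromosome for Cxcl1 (1875 bases), Cxcl2 (2068) and Cxcl3 (3498), and for Cxcl1 and Cxcl3 equal to the summed length of all GENCODE transcripts. With the longest transcript as length, Cxcl3 was below Cxcl2 in lone fibroblasts (ratio 0.358 to 0.510, mean 0.435) and was not set apart from it in cocultured fibroblasts (0.907 to 1.36, mean 1.17), while Cxcl5 over Cxcl1 had mean ratios of 0.864 and 1.10. With the longest protein-coding transcript as length, a choice added after the data were seen, Cxcl5 was below Cxcl1 in every library, with a mean ratio of 0.521 in lone and 0.663 in cocultured fibroblasts, and Cxcl3 was above Cxcl2 in both groups, with mean ratios of 1.35 and 3.62.

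Summed over the genes, the CPM was 644, 654 and 656 in lone fibroblasts and 1536, 1499 and 2118 in cocultured fibroblasts. Cxcl1 and Cxcl5 made up nearly all of it. As a percent of the summed FPKM, Cxcl5 held 50.7 ± 2.10 in lone and 54.9 ± 2.04 in cocultured libraries, and Cxcl1 held 47.4 ± 2.13 and 40.4 ± 2.30 (SD, n = 3 each). Cxcl3 went from 0.889 ± 0.133 to 3.25 ± 0.412 percent and Cxcl2 from 1.06 ± 0.0453 to 1.46 ± 0.165 percent. The share of Cxcl3 rose and that of Cxcl1 fell with each of the 3 lengths tried. This had to be so at any length, since their fold changes were the largest and the smallest of these genes.

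The cluster holds 3 further CXC genes, which place the ligands beside their neighbours. Ppbp, whose product is cleaved to a further CXCR2 ligand known from platelets, went from 3, 7 and 3 counts to 71, 66 and 75 with Th17 cells. On the log2 scale it rose by 3.92 (SE 0.307, edgeR adjusted p = 1.21e-05), from a level at which a few counts set the size, and over the alternatives by 2.22 to 4.42. Pf4, the platelet gene between Ppbp and Cxcl3, whose product is no CXCR2 ligand, moved the other way, from 7, 10 and 8 counts to 0 in all 3 cocultured libraries, at least 2.84-fold lower against a floor of 3 counts a library, and did not pass the filter on low counts. Cxcl15 was at 0 counts except for 1 count in cocultured replicate 2. Of 23 genes within 500 kb of the outermost ligand genes, these 3 included, 8 were tested, 6 rose and none fell. Over all tested genes 17.1% rose and 20.0% fell. The median log2 fold change of the 8 tested neighbours was 0.91. The highest were Ppbp and Areg, which encodes the growth factor amphiregulin and rose by 1.23 (SE 0.217, edgeR adjusted p = 0.00192). The count of 6 depended on single libraries, falling to 3 (Areg, Ereg and Ppbp) without lone replicate 2, without lone replicate 3 or without cocultured replicate 1, and to 4 without lone replicate 1.

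**Figure D4:**
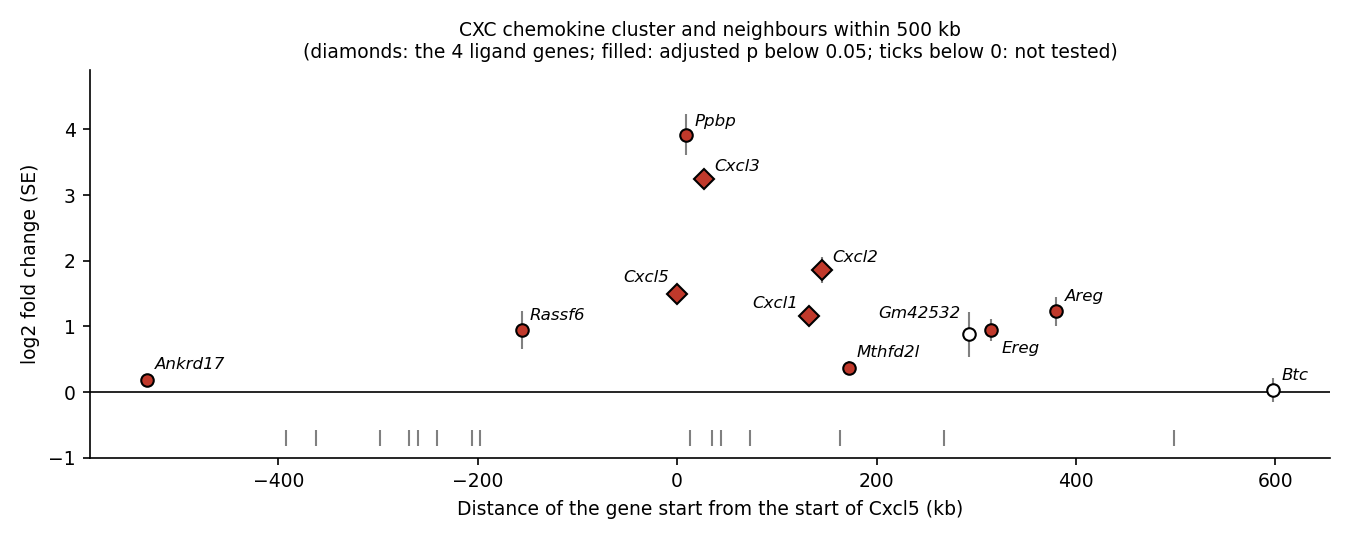
Log2 fold change (edgeR, vertical bars give the SE) of the genes within 500 kb of the ligand genes, by distance in kb of each gene's lower coordinate from that of Cxcl5. Diamonds are the 4 ligand genes, filled points passed an adjusted p of 0.05, open points did not, and ticks mark genes that were not tested. The largest values lie inside the cluster, at 3.92 for Ppbp and 3.24 for Cxcl3, and Ankrd17, at the far left, is at 0.19.

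The receptors gave no reading of a response of the fibroblasts to their own ligands. Cxcr1 and Cxcr2 were at 0 counts in all 6 libraries, and Ackr1, a decoy receptor that binds CXC and CC chemokines, did not pass the filter on low counts. Among 10 receptors and adaptors through which IL-17, IL-1, TNF and Toll-like receptor ligands induce these genes, all tested, 2 rose, 2 fell and 6 did not pass, with a median log2 fold change of −0.09. Over all tested genes 17.1% rose and 20.0% fell, so this list moved about as the background did. The interleukin-1 receptor chains rose: Il1rap went from 115 ± 5.81 to 215 ± 4.64 CPM (SD, n = 3 each; log2 0.91, edgeR adjusted p = 4.95e-06) and Il1r1 from 61.3 ± 4.75 to 99.7 ± 13.4 CPM (log2 0.70, edgeR adjusted p = 0.000762). Myd88, the adaptor of the interleukin-1 and Toll-like receptors, fell by 1.01 on the log2 scale (edgeR adjusted p = 1.52e-05), and Tlr2, which senses bacterial lipoproteins, fell by 0.62 (edgeR adjusted p = 0.000407). The chains of the IL-17 receptor, singled out after their values were seen, did not pass: Il17ra had 26.4 ± 1.84 CPM in lone and 24.9 ± 0.780 CPM in cocultured fibroblasts, and Il17rc had 32.4 ± 1.26 and 28.5 ± 1.85 CPM (SD, n = 3 each; edgeR adjusted p = 0.517 and 0.132).

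Of 8 transcription factors known at the ligand promoters, all tested, 3 rose and none fell, with a median log2 fold change of 0.05. The background for this list and the next was 17.1% of tested genes higher and 20.0% lower. Nfkb1, which encodes the p50 subunit of NF-κB and its precursor, went from 181 ± 2.89 to 362 ± 16.7 CPM (SD, n = 3 each; log2 1.0, edgeR adjusted p = 1.85e-06). Cebpd, which encodes C/EBPδ, rose by 0.41 (edgeR adjusted p = 0.0404), a call lost without lone replicate 1 or 2 or without cocultured replicate 2 or 3, with adjusted p between 0.0554 and 0.135. Rela and Nfkbiz, the genes of the p65 subunit and of IκBζ and again singled out afterwards, had log2 fold changes of 0.04 and −0.08 (edgeR adjusted p = 0.688 and 0.555). Of 9 genes that restrain NF-κB or set the life of chemokine mRNA, 2 rose, 3 fell and 4 did not pass, with a median of −0.12. Zc3h12a, which encodes the RNase Regnase-1, went from 121 ± 2.15 to 261 ± 6.05 CPM (SD, n = 3 each; log2 1.11, edgeR adjusted p = 6.79e-07), and Elavl1, the gene of the mRNA-stabilising protein HuR, rose by 0.28 (edgeR adjusted p = 0.00797). Arid5a, whose product protects inflammatory mRNAs from Regnase-1, fell by 1.47 (edgeR adjusted p = 0.00205; −1.69 to −0.57 over the alternatives), and Zfp36l2, which encodes a decay factor of AU-rich mRNAs, fell by 0.42 (edgeR adjusted p = 0.00341).

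Other stromal genes that call in or feed neutrophils and myeloid cells moved in both directions. Of 12 such genes, 10 were tested, of which 7 rose and 3 fell, with a median log2 fold change of 0.42. Over all tested genes 17.1% rose and 20.0% fell. Csf2, the gene of the growth factor GM-CSF, went from 5.35 ± 0.928 to 25.1 ± 8.79 CPM (SD, n = 3 each; log2 2.23, edgeR adjusted p = 0.00016), and Lcn2, which encodes the iron-scavenging protein lipocalin-2, from 4.86 ± 0.855 to 20.4 ± 2.50 CPM (log2 2.07, edgeR adjusted p = 1.18e-05). Icam1, the adhesion molecule that neutrophils grip, went from 28.3 ± 3.57 to 2.05 ± 0.416 CPM (log2 −3.77, edgeR adjusted p = 3.77e-07). Cxcl12, the chemokine that holds neutrophils in the marrow through CXCR4, went from 179 ± 0.393 to 81.8 ± 0.531 CPM (log2 −1.13, edgeR adjusted p = 5.76e-07). S100a9 was at 0 counts in every library. Of the genes named by the rule for these lists, Cebpd was the 1 whose call changed under the alternatives in which it was tested; Ppbp was not tested with at least 10 counts required in every library.

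**Figure D5:**
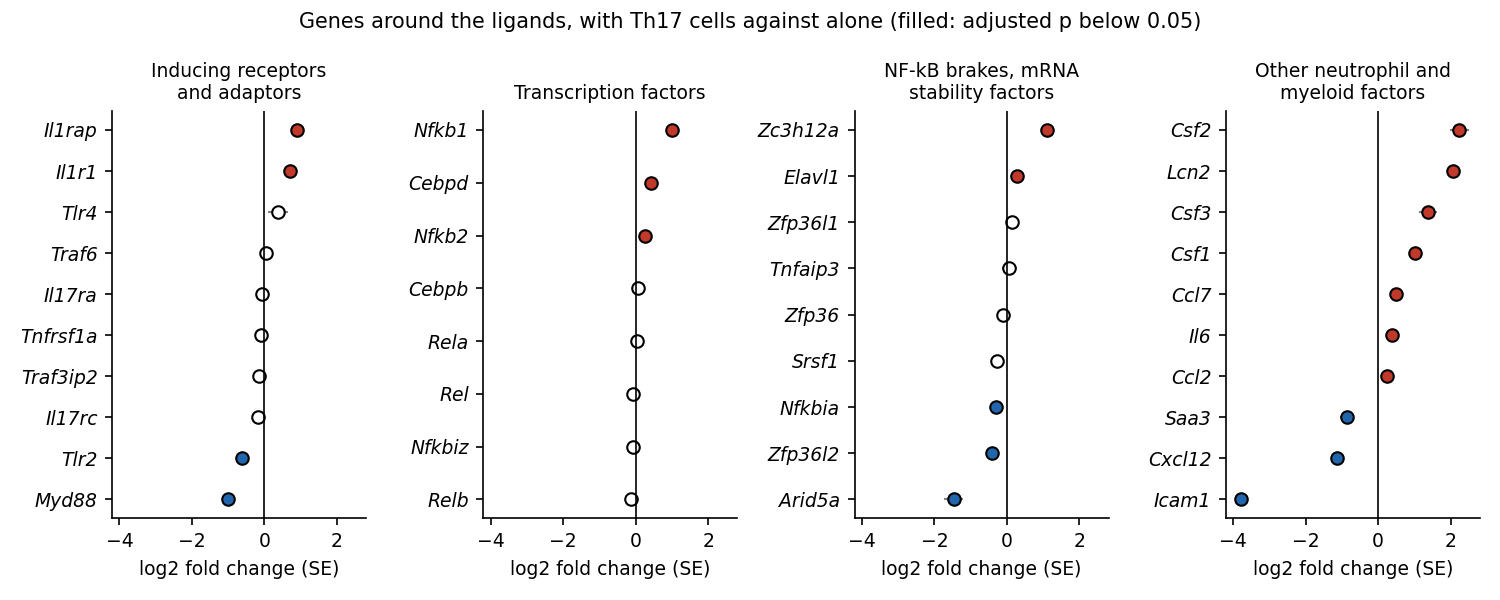
Log2 fold change (edgeR, horizontal bars give the SE) of the tested genes of 4 lists around the ligands. Red points rose and blue points fell past an adjusted p of 0.05, and open points did not pass. The ligand-inducing receptors and factors spread to both sides of 0, with Il1rap at 0.91 and Myd88 at −1.01, and the widest panel runs from −3.77 for Icam1 to 2.23 for Csf2.

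Across the 6 libraries, Pearson's r between the log2 CPM of ligand genes lay from 0.9517 for Cxcl1 and Cxcl3 to 0.9952 for Cxcl2 and Cxcl5. These points fall into the groups being compared, so r mostly restates the difference between them and carries no p. Among 9740 genes with a mean of at least 100 counts, the most similar to Cxcl1 were Adh5 (0.9981), Zfpm2 (0.9968) and Rnf149 (0.9960). The size of a change does not enter r: Zfpm2 had a log2 fold change of 0.14, which did not pass (edgeR adjusted p = 0.135). For Cxcl2 they were Plin2 (0.9975), Txnrd1 (0.9968) and C1qbp (0.9964), and for Cxcl5 Plin2 (0.9987), Cdk10 (0.9981) and Manea (0.9978). For Cxcl3, Cblb (0.9992) and Bysl (0.9989) were among the most similar.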

How the data were processed

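Per the labels and the study's methods, RNA libraries were made with a VAHTS Universal V6 kit, sequenced on an Illumina NovaSeq, filtered with Seqtk, aligned with HISAT2 2.0.4 and counted with StringTie 1.3.3b (submitters' processing notes, mm10). The authors deposited raw fragment counts and FPKM values for each gene and library. Strand use is not given in the sources used here.

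Groups came from the titles. Counts were tested in R 4.3.3 with edgeR 4.0.16 (filterByExpr, minimum count 10, TMM, glmQLFit and glmQLFTest, two-sided, Benjamini-Hochberg over 13088 genes), after the study's methods. CPM used TMM library sizes, and the biological coefficient of variation was 11.6%. No library was a copy of another (chi-square per gene at least 6.30). Log2 ratios of genes (prior count 0.5 CPM) were compared by exact permutation with SciPy 1.17.1. The edgeR, DESeq2 and limma fits, but not glmTreat or the permutation test, were also run on simulated counts, with an outcome not given here. The simulation gave every gene in both groups the same biological coefficient of variation. It therefore did not cover a spread that differs between groups. Alternatives were DESeq2 1.42.0, other scalings and filters, limma 3.58.1 on log2(FPKM + 1), a replicate block, glmTreat and leaving out each library. Where a symbol was duplicated (59 of them), the row of highest count was taken. Named were all ligand genes, in each list the 2 genes with the highest and the 2 with the lowest log2 fold change past the threshold, and the 3 genes most like each ligand gene, of which 1 is not reported here. The genes and lists were chosen with earlier results of these data known. Intervals and floors cover counting error or the spread of libraries only, since fragments counted without molecular identifiers need not be separate molecules.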

Additional observations from a re-analysis of the deposited data

How the results depend on the processing

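Each ligand gene kept its direction and an edgeR, DESeq2 or limma adjusted p below 0.05 under all 14 alternatives that test against no change (8 other fits and 6 with a library left out), glmTreat against a fold change of 2 being apart from these. The log2 fold change of Cxcl1 was 1.13 to 1.23, that of Cxcl2 1.56 to 1.93, that of Cxcl3 2.82 to 3.3 and that of Cxcl5 1.48 to 1.56 under other tools, scalings and filters. With each library left out in turn the ranges were 0.94 to 1.27, 1.58 to 2.01, 3.14 to 3.36 and 1.36 to 1.58. The highest adjusted p over these 14 was 0.00308 for Cxcl1, 0.00111 for Cxcl2, 5.71e-06 for Cxcl3 and 0.000125 for Cxcl5. Samples with the same replicate number did not deviate together (correlations 0.0118, −0.0512 and −0.00105), so the numbers were not taken to pair them. With the replicate block the values were 1.13, 1.82, 3.24 and 1.48, and 4513 genes were called in place of 4856. The differences between pairs of genes kept their direction in all 42 combinations of pair and alternative. With a library left out this was fixed in advance, because the groups did not overlap in any ratio. Only a change of prior count could have altered a direction. Past an adjusted p of 0.05 and a fold change of 2 in either direction, 1524 genes were called by edgeR, 626 by limma and 791 by glmTreat.

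Shares of the summed level moved with the length used. With the longest transcript they were 52.2 and 44.9 percent for Cxcl1, 1.93 and 2.68 for Cxcl2, and 45.0 and 49.3 for Cxcl5 in lone and cocultured libraries. With the longest protein-coding transcript, a length added after the data were seen, they were 63.7 and 55.1 for Cxcl1, 1.34 and 1.86 for Cxcl2, 1.79 and 6.66 for Cxcl3, and 33.1 and 36.4 for Cxcl5. Of 112 counts of list genes under alternatives, 107 stayed within 1.5 times. The exceptions rest on scarce genes that a filter removes or admits. Of the other CXC genes of the cluster, 0 rose with at least 10 counts required in every library, and 1 fell with DESeq2 and 1 without a filter. Of the neighbours, 1 fell with DESeq2 and 2 without a filter. Leaving out each library was added for the lists after the data were seen; Epgn then fell without lone or cocultured replicate 3. At this depth Pf4, Cxcl15, Cxcr1, Cxcr2 and Ackr1 did not pass the filter on low counts.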
